A study of Mus musculus with 10 samples.

Results

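The Iroquois homeobox family of the mouse comprises Irx1 to Irx6, and all 6 were found by Ensembl identifier among the 25006 genes listed for each of 10 single neurons. The family was chosen by a measured value, the level of Irx2 in type 1 against type 2 neurons, so the levels of Irx2 and its difference between the types describe what it was chosen for and support nothing. The cells were leptin receptor neurons of the solitary tract nucleus, the brainstem station of visceral sensory nerves, and their contents were drawn into a glass pipette in acute slices. The labels sort them by firing property into 5 of type 1, with the cell identifiers 1-1, 1-2, 4-3, 8-2 and 9-1, and 5 of type 2, with the identifiers 6-2, 10-1, 10-3, 9-2 and 9-4. All came from 3-month-old C57BL/6 mice carrying LepRb-Cre and Halo-eYFP, so that Cre made under the leptin receptor gene turns on a yellow fluorescent reporter in any cell in which that gene is or has been active. The sources used here do not define the firing types and name no animal. Each library was made from the nuclear and cytoplasmic RNA drawn from 1 neuron, with markers of other cell types in some. Each type was therefore treated as 1 sample, spreads are between cells, and no test was made.

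Iroquois genes encode transcription factors with a homeodomain of the TALE class, which carries extra residues in a loop, and with a short Iro box that only this family has. They were found in the fly as genes that pattern the body wall and its bristles, and in vertebrates they take part in dividing the neural tube, heart and limb into territories. In mammals they lie in a pair of clusters, IrxA with Irx1, Irx2 and Irx4 and IrxB with Irx3, Irx5 and Irx6, and neighbouring members are often active in overlapping cells of the embryo. On the GRCm38 build, which mm10 also names, IrxA lies on chromosome 13 and IrxB on chromosome 8.

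The homeobox is the part of the genes in which members are hardest to tell apart, and a read taken wholly from it can fit several of them. The same 60 coding bases of the homeobox are shown for each member, 5′ to 3′ on the coding strand, with capitals at bases that differ from Irx2. This stretch was picked as the part of the Irx2 coding sequence best conserved in all members, so its identity is not typical of the homeobox.
Irx2: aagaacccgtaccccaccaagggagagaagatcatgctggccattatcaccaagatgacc
Irx5: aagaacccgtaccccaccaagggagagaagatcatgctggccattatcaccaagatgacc
Irx1: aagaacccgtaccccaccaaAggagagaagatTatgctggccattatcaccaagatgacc
Irx4: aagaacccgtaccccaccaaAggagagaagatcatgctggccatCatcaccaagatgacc
Irx6: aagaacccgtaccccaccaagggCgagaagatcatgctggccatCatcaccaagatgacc
Irx3: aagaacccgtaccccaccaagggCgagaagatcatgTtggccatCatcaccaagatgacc
Each stretch lies inside 1 coding exon, at chr13:72630733-72630792 (plus strand) for Irx2, chr8:92359696-92359755 (plus) for Irx5, chr13:71960052-71960111 (minus) for Irx1, chr13:73267592-73267651 (plus) for Irx4, chr8:92677305-92677364 (plus) for Irx6 and chr8:91800556-91800615 (minus) for Irx3. Irx5 was identical to Irx2 at all 60 bases although the genes lie on different chromosomes. Irx1, Irx4 and Irx6 matched Irx2 at 58 bases and Irx3 at 57. Over the whole transcripts, homeobox included, few runs of 50 bases were shared: Irx2 (3324 runs) and Irx5 (3078) shared 16, Irx3 (2762) and Irx6 (3368) shared 39, Irx3 and Irx5 shared 1, and the other 12 pairs shared 0. Reads from those shared runs could be credited to either gene or dropped, depending on counting options that no source used here gives.

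Levels are in CPM, the counts of a gene divided by the summed gene counts of its library and scaled to the same total for all libraries, and detection means 10 CPM or more together with 3 counts or more. Libraries held 9796799 to 41844825 counts in type 1 and 12195253 to 41608996 in type 2, and 3 counts, the limit that a count of 0 allows, correspond to 0.0717 to 0.306 CPM over all 10. Libraries 1-1, 1-2 and 4-3 of type 1 and 6-2 of type 2 held fewer than 20000000 counts. Of 10 neuronal markers, 9 to 10 were detected in type 1 neurons and 8 to 10 in type 2 neurons, and Lepr, the gene behind the reporter, was at 1.15 to 122 CPM in type 1 neurons and 0.890 to 50.7 CPM in type 2 neurons. Poisson intervals cover counting error only: reads without molecular identifiers are not independent molecules.

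Type 1 neurons held RNA of 4 Iroquois genes and type 2 neurons held next to none. Irx2, Irx3 and Irx5 were above every type 2 neuron in every type 1 neuron, Irx1 was present in some type 1 neurons only, and Irx4 and Irx6 had 0 counts in all 10. The 3 genes with clear levels come from both clusters, and each cluster also has a member without a count. Of the 6 members, 4 averaged 1 CPM or more, each through type 1 alone, and 3 had a difference of mean log2(CPM + 1), type 1 minus type 2, of 2 or more, where 7.78% of the 11923 genes averaging as much did, and 0 had one of -2 or less, where 13.5% did. Every type 1 neuron lay above every type 2 neuron in 3 members, against 0.587% of all these genes, and the reverse held in 0 members, against 1.44%. The contrast between the types chose the family, so nothing is read from these shares. Over all 11923 genes the median difference was -0.24.

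**Figure D1:**
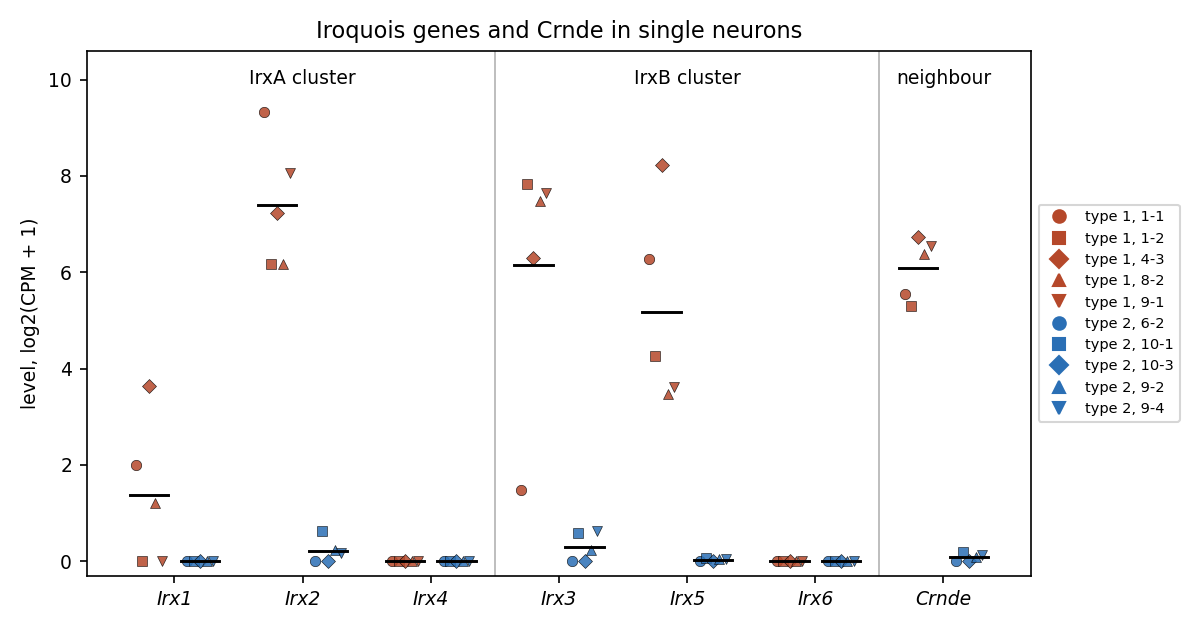
Levels of the 6 Iroquois genes and of Crnde, a neighbour of Irx5, as log2(CPM + 1) in each neuron; red symbols are the 5 type 1 neurons, blue symbols the 5 type 2 neurons, 1 symbol shape per neuron within a type, and bars are means. Irx2, Irx3, Irx5 and Crnde lie apart in the types, with Irx3 in 1-1 at 1.80 CPM the type 1 point nearest to type 2.

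Irx2 (ENSMUSG00000001504, chr13:72628820-72634198, plus strand) is known in the chick for its role in forming the cerebellum, where signalling from the midbrain boundary modifies the protein. It was at 637 CPM in 1-1, 70.8 CPM in 1-2, 149 CPM in 4-3, 70.6 CPM in 8-2 and 267 CPM in 9-1, against 0 CPM in 6-2, 0.553 CPM in 10-1, 0 CPM in 10-3, 0.175 CPM in 9-2 and 0.127 CPM in 9-4. The groups did not overlap, and the type 1 levels spanned 9.02-fold. Behind the type 2 values stood 23 counts in 10-1, 5 in 9-2 and 4 in 9-4. With counts summed within a type, Irx2 was at 208 CPM in type 1 neurons (206 to 211, exact Poisson 95% interval) and 0.213 CPM in type 2 neurons (0.146 to 0.301). The difference of mean log2(CPM + 1) was 7.18.

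Bases before the Irx2 start are shown with those of 2 other starts, Irx4 as the member of the same cluster with no counts and Crnde as the neighbour whose levels are described with the family. They are RefSeq promoter windows on GRCm38.p6, kept only up to the base before the annotated gene start, 5′ to 3′ on the gene's strand, with CpG pairs in capitals.
Irx2: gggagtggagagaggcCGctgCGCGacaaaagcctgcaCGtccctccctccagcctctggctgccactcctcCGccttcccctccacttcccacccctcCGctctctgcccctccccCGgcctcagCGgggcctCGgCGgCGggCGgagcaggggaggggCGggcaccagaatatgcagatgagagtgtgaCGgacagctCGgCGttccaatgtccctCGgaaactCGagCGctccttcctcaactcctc
Irx4: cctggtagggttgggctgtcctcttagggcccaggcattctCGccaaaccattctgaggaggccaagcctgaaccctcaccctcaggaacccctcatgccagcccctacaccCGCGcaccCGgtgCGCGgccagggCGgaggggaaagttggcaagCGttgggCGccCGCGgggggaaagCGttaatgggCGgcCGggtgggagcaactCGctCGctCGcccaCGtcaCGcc
Crnde: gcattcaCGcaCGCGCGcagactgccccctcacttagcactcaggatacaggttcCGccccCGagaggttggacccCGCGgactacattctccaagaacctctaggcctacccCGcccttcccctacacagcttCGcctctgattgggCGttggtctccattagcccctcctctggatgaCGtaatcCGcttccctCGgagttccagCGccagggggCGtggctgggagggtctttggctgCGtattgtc
The windows are chr13:72628570-72628819 (plus strand, 250 bases) for Irx2, chr13:73260247-73260478 (plus, 232 bases) for Irx4 and chr8:92356121-92356370 (minus, 250 bases) for Crnde. Irx2 had 19 CpG pairs and 68.4% G or C, Irx4 had 19 and 68.1%, and Crnde had 17 and 62.0%, where 32851 RefSeq windows cut to 250 bases had a median of 6 CpG pairs (quartiles 2 to 16) and 52.4% G or C (45.2 to 61.2%). The start of Irx4, a gene without counts here, was thus as rich in CpG as that of Irx2. The palindrome ACANNTGT, reported as a binding motif of Iroquois proteins in the fly, was searched on both strands and matched none of the 3 windows, while 6.31% of all windows held it. CCAAT, on either strand, occurred 1 time in Irx2 and 1 time in Crnde and was not found in Irx4 (33.8% of all windows held it), and TATAAA was in none of the 3 (12.4% of all). These matches describe letters in a window and not sites. The Irx3 window lies in an annotated exon and is not printed, and windows of Irx1, Irx5 and Irx6 are not used here.

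Irx1 (ENSMUSG00000060969, chr13:71957921-71963723, minus strand), whose start lies 665 kb from that of Irx2, is a cluster neighbour often active in the same embryonic tissues as Irx2. It was at 3.00 CPM in 1-1, 0 CPM in 1-2, 11.5 CPM in 4-3, 1.31 CPM in 8-2 and 0 CPM in 9-1, and at 0 CPM in all 5 type 2 neurons. Only 4-3 passed the detection level, with 113 counts, while 1-1 had 45 and 8-2 had 55. The groups overlapped at 0, and the difference of mean log2(CPM + 1) was 1.37. Neuron 1-2 and neuron 9-1 thus had Irx2 with no Irx1 count. Irx2, chosen for its type 1 pattern, was in all 5 type 1 neurons, so Irx1 could not occur there without it. Irx4 (ENSMUSG00000021604, chr13:73260479-73269608, plus strand), the heart ventricle member of the family, starts 632 kb beyond Irx2 and had 0 counts in every neuron. By depth alone that allows up to 0.0268 CPM over the summed type 1 libraries and 0.0200 CPM over the summed type 2 libraries, and transcripts lost before sequencing are not covered.

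Irx3 (ENSMUSG00000031734, chr8:91798525-91802067, minus strand) helps to set progenitor domains in the embryonic neural tube, and in the mouse hypothalamus it has been tied to body weight. It was at 1.80 CPM in 1-1, 227 CPM in 1-2, 77.6 CPM in 4-3, 177 CPM in 8-2 and 199 CPM in 9-1, against 0 CPM in 6-2, 0.505 CPM in 10-1, 0 CPM in 10-3, 0.175 CPM in 9-2 and 0.541 CPM in 9-4. In 4 type 1 neurons it was far above every type 2 neuron, while 1-1, the neuron with the most Irx2, held 27 counts of it. The type 2 counts were 21 in 10-1, 5 in 9-2 and 17 in 9-4, so that the ranges of the types came close in CPM and did not meet. Irx3 was detected in 4 of 5 type 1 neurons and in 0 of 5 type 2 neurons. Summed levels were 157 CPM in type 1 neurons (exact Poisson bounds 155 to 160) and 0.287 CPM in type 2 neurons (0.207 to 0.386). The difference of mean log2(CPM + 1) was 5.86, and 7.02 without 1-1.

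Neuron 1-1 also lacked many other transcripts of its type. Of 2731 genes detected in the other 4 type 1 neurons, 509 (18.6%) were not detected in 1-1, and 344 of these had 0 counts. In the same measure the other type 1 neurons missed 5.77 to 15.5%. The part of such losses in the low Irx3 value was not tested. Irx3 shares 124 exon bases with Irx3os on the opposite strand, which has no row in the tables, and reads from the 2 cannot be told apart without knowing the strand setting.

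Irx5 (ENSMUSG00000031737, chr8:92357625-92376286, plus strand), known for setting the gradient of repolarisation across the mouse heart wall and for retinal bipolar cells, starts 556 kb from Irx3. It was at 76.5 CPM in 1-1, 18.3 CPM in 1-2, 299 CPM in 4-3, 10.1 CPM in 8-2 and 11.2 CPM in 9-1, against 0 CPM in 6-2, 0.0481 CPM in 10-1, 0 CPM in 10-3, 0.0351 CPM in 9-2 and 0.0318 CPM in 9-4. Those type 2 values rest on 2, 1 and 1 counts in 10-1, 9-2 and 9-4. The groups did not overlap, but 8-2 and 9-1 were just inside the detection level, which at 50 CPM would leave 2 type 1 neurons. The 3 type 1 libraries under 20000000 counts were all above the 2 deeper ones, so within type 1 the level moved with depth, and the part of depth in this was not tested. Summed Irx5 was 45.6 CPM in type 1 neurons (exact Poisson bounds 44.4 to 46.9) and 0.0267 CPM in type 2 neurons (0.00727 to 0.0683), and the difference of mean log2(CPM + 1) was 5.14.

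Irx6 (ENSMUSG00000031738, chr8:92674288-92680956, plus strand), a gene of retinal bipolar cells, starts 317 kb beyond Irx5 and had 0 counts in all 10 neurons. It shares more runs of 50 bases with Irx3 than any other member does, and shares 152 exon bases with Gm45505 on the other strand, which has no row. Irx4 and Irx6 are the members at the same end of their clusters.

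The differences between the types were also computed within sets of libraries. Among libraries above 20000000 counts, which hold 2 type 1 and 4 type 2 neurons, the difference of mean log2(CPM + 1) was 6.85 for Irx2, 7.20 for Irx3 and 3.50 for Irx5. Below that depth, with 3 type 1 neurons and 6-2 alone of type 2, it was 7.57, 5.20 and 6.26 in the same order of genes. Among the 3 neurons whose identifier begins with 9, 1 of type 1 and 2 of type 2, it was 7.86, 7.22 and 3.57. All of these stayed past 2. The ranges of these genes do not overlap between the types, so no set of these neurons could reverse a difference. The same contrast chose the family, and the part of depth or identifier in it was not tested.

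The type 1 neurons combined the 3 genes in different proportions. Levels of different genes were set side by side per kilobase of merged exon. That scale assumes that reads spread evenly over each transcript, which was not checked. On it, Irx2 was the highest member in 1-1 with 88.1% of the family's summed CPM per kilobase, and in 9-1 with 51.8%. Irx3 was the highest in 1-2 with 75.0% and in 8-2 with 71.7%, and Irx5 in 4-3 with 55.1%. In 9-1 Irx3 followed close behind Irx2 with 45.9%. The ratio of Irx2 to Irx3 per kilobase was 297 in 1-1, 0.263 in 1-2, 1.61 in 4-3, 0.336 in 8-2 and 1.127 in 9-1. No member led in all 5 neurons. Between these neurons, genes averaging 10 CPM or more in type 1 had a median SD of log2(CPM + 1) of 2.80, above that of each of the 3 genes. Nothing particular to the family is therefore read from the changing proportions, and the part of lost transcripts in them was not tested.

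**Figure D2:**
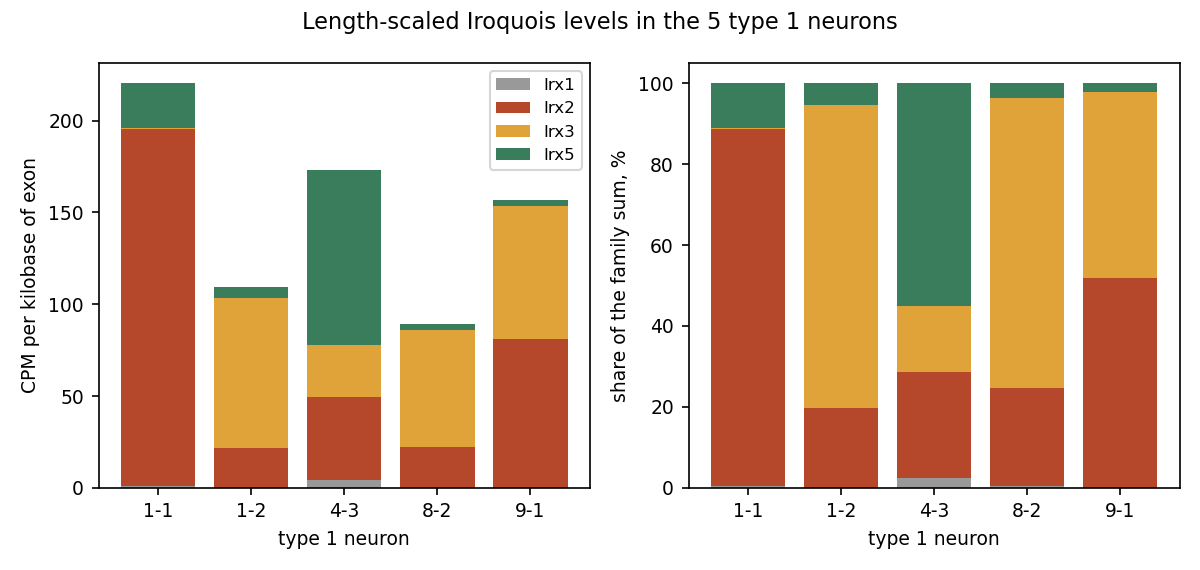
Iroquois levels in the 5 type 1 neurons, as CPM per kilobase of merged exon (left, stacked) and as each gene's share in % of the family's sum (right). The leading member is Irx2 in 1-1 and 9-1, Irx3 in 1-2 and 8-2, and Irx5 in 4-3.

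The family's sum spanned a smaller range in type 1 than Irx2, Irx3 or Irx5 did singly. A sum tends to do so when different members lead in different neurons, so nothing is read from this. It was 220, 109, 173, 89.4 and 157 CPM per kilobase in 1-1, 1-2, 4-3, 8-2 and 9-1, a mean of 150 ± 52.1 in type 1 (SD, n = 5 neurons), and lay between 0 and 0.367 in type 2, with a mean of 0.148 ± 0.159 (SD, n = 5 neurons). Neurons 6-2 and 10-3 had no count of any member. Between type 1 neurons the SD of log2(CPM + 1) was 1.34 for Irx2, 2.67 for Irx3 and 2.04 for Irx5, where the 8814 genes averaging 10 CPM or more in type 1 had a median SD of 2.80 (quartiles 1.59 to 3.22). The value of Irx2 follows from its choice as a gene present in type 1 neurons, and those of Irx3 and Irx5 lay between the quartiles. The number of members detected was 2 in 1-1, 3 in 1-2, 4 in 4-3, 3 in 8-2 and 3 in 9-1, and 0 in each type 2 neuron.

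Crnde (ENSMUSG00000031736, chr8:92326033-92356120, minus strand), a long noncoding RNA gene named for its rise in human colorectal tumours, starts 1.505 kb from Irx5 and is read in the opposite direction. It was at 45.5 CPM in 1-1, 38.2 CPM in 1-2, 106 CPM in 4-3, 81.8 CPM in 8-2 and 92.8 CPM in 9-1, against 0 CPM in 6-2, 0.144 CPM in 10-1, 0 CPM in 10-3, 0.0701 CPM in 9-2 and 0.0954 CPM in 9-4. All type 1 neurons stood above all type 2 neurons, and type 1 levels spanned only 2.76-fold against 29.5-fold for Irx5, its nearest neighbour, and 126-fold for Irx3. Its SD of log2(CPM + 1) between type 1 neurons was 0.64, and its difference of mean log2(CPM + 1) was 6.01. The neurons with no Irx2, Irx3 or Irx5 count, 6-2 and 10-3, had no Crnde count, and 10-1, 9-2 and 9-4 had 6, 2 and 3. This was not particular to Crnde. Of the genes nearest to Irx2 in profile, Ttc39c, Crtac1, Fibcd1 and Cntn5 were also at 0 CPM in 6-2 and 10-3. Omp, Dkk2 and Zfhx3 were not at 0 CPM in both. Irx2, Irx5 and Crnde were among 14 genes detected in all 5 type 1 neurons and in 0 type 2 neurons, where the 14 are 0.117% of the 11923.

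Crnde was set among all genes around the clusters. Within 1 Mb outside each cluster and between its members, 117 other genes are annotated, and 44 of them have a row in the tables, 22 on each chromosome. Of the 44, 22 had 0 counts in every neuron (41.6% of all listed genes) and 20 averaged 1 CPM or more. Among these 20, 2 were higher in type 1 by 2 log2 units or more (7.78% of all genes), 1 was higher in type 2 by as much (13.5% of all genes), and 17 lay within that limit, with a median difference of -0.04. Crnde was the only 1 of the 20 in which every type 1 neuron lay above every type 2 neuron (0.587% of all genes).

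Apart from Crnde and Lpcat1, the neighbours detected in 3 or more neurons of either type had differences of -0.93 to 1.37, inside the limit. Fto, an RNA demethylase gene whose introns hold enhancers that contact Irx3 in mouse and human, starts 489 kb from Irx3 and was detected in all 10 neurons. Its mean was 232 ± 237 CPM in type 1 neurons and 197 ± 74.1 CPM in type 2 neurons (SD, n = 5 neurons each), a log2 difference of -0.37. Aktip, which encodes a protein of endosomal transport and telomeres, averaged 372 ± 216 CPM in type 1 neurons and 263 ± 109 CPM in type 2 neurons, a difference of 0.26. Beyond Irx4, Ndufs6, a subunit of respiratory complex I, averaged 120 ± 45.5 CPM in type 1 neurons and 122 ± 71.8 CPM in type 2 neurons. Ndufs6 and Mrpl36 overlap at their starts on opposite strands, as do Aktip and Rbl2 at their ends, and reads there cannot be told apart without the strand setting. The mitochondrial ribosomal protein gene Mrpl36, Clptm1l, the chromatin reader gene Brd9, the tubulin polymerisation gene Tppp, the exocyst gene Exoc3 and the chromatin remodeller gene Chd9 had differences of -0.41, -0.93, -0.57, 0.88, 0.17 and 1.37 in that order.

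The other neighbours past the limit were a pair of related genes, 1 beside each cluster. Lpcat1, an acyltransferase of phosphatidylcholine remodelling that starts 838 kb beyond Irx2, averaged 2.05 ± 3.49 CPM in type 1 neurons and 97.8 ± 90.3 CPM in type 2 neurons, a difference of -4.54. It passed the detection level in no type 1 neuron and in 4 type 2 neurons, and the ranges overlapped through 6-2, at 1.07 CPM. Lpcat2, its relative on chromosome 8, starts 498 kb beyond Irx5, had 31.3 CPM in 4-3, 212 CPM in 9-1 and at most 0.0717 CPM in the other type 1 neurons, against at most 2.38 CPM in type 2 neurons. It is named here because it was 1 of the 2 neighbours past the limit in type 1, a choice made after its values were seen.

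**Figure D3:**
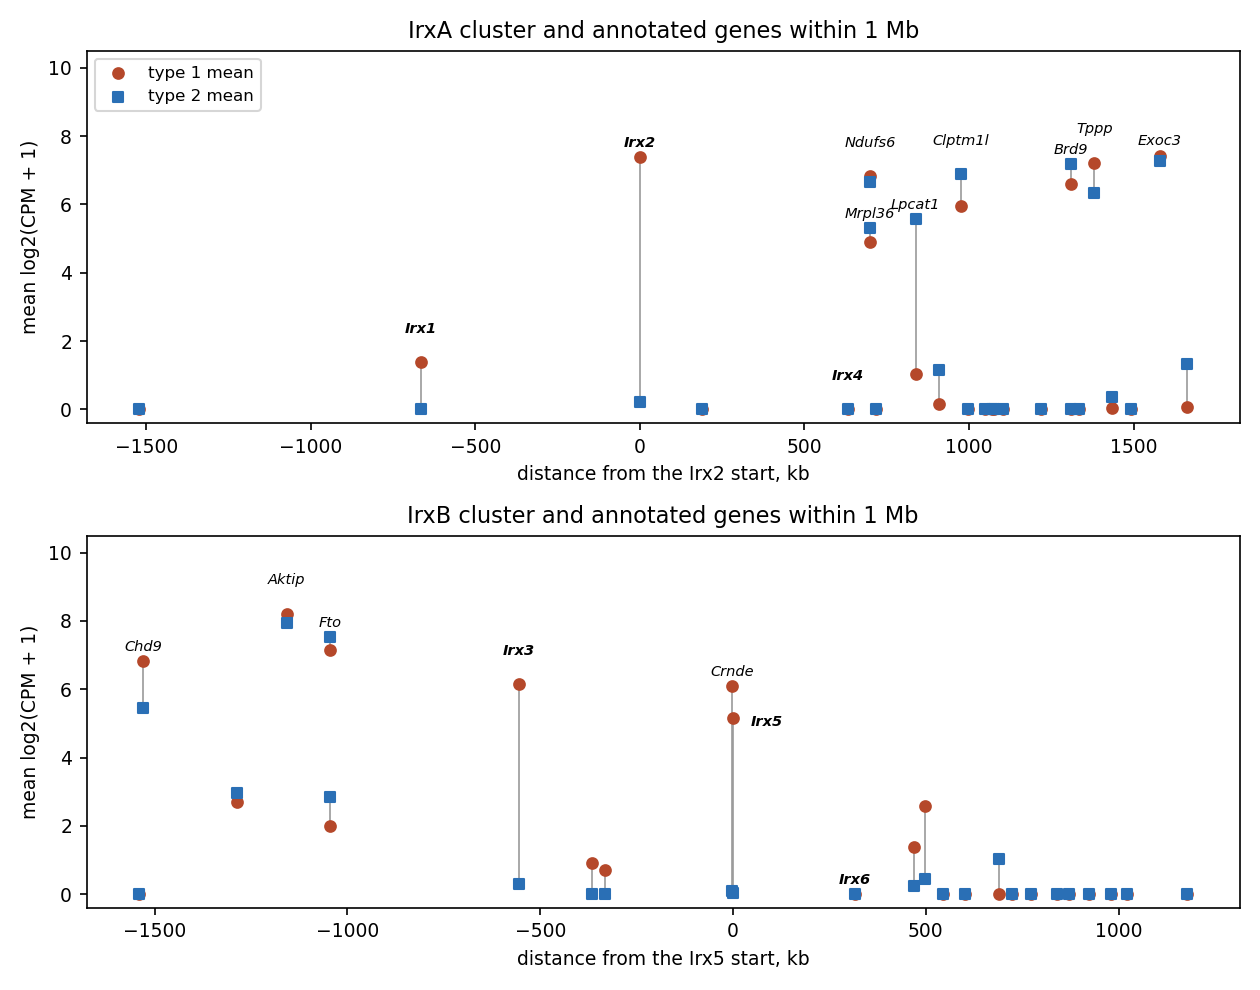
Mean log2(CPM + 1) of every gene with a row around IrxA (top) and IrxB (bottom), against the distance of its start from that of Irx2 or Irx5 in kb; red circles are type 1 means, blue squares type 2 means (n = 5 neurons each), joined by a line. Long lines with type 1 on top occur at Irx2, Irx3, Irx5 and Crnde, and the long line with type 2 on top is Lpcat1.

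Genes were ranked by how closely their profile over the 10 neurons followed that of each Iroquois gene, as the root mean square difference of centred log2(CPM + 1) over 8812 named genes averaging 10 CPM or more. For Irx2 the nearest were Ttc39c at 0.59, Omp, a marker of olfactory sensory neurons, at 0.66, Crtac1 at 0.74, the receptor gene Fibcd1 at 0.78, the Wnt modulator Dkk2 at 0.83, the zinc finger homeobox gene Zfhx3 at 1.11, Crnde at 1.133 and the adhesion gene Cntn5 at 1.22. All 8 were at 36.4 CPM or more in every type 1 neuron and at most 2.46 CPM in type 2 neurons. Smaller values mean closer profiles, and the measure includes the step between the types that Irx2 was chosen for.

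For Irx3 a different set came out. Among the nearest were the synaptotagmin gene Syt6 at 0.60, the retinoic acid receptor gene Rarb at 0.67, the rhomboid gene Rhbdl3 at 0.70, the deubiquitinase gene Otud7a at 0.90, Hcfc2 at 1.26, Scaf4 at 1.29 and Slc7a6os at 1.298. Each was at 0 CPM in 1-1 except Rhbdl3, at 1.34 CPM, and each was at 17.9 CPM or more in the other type 1 neurons. These genes were picked for closeness to Irx3 over the same neurons. That they share its step between the types and its low value in 1-1 follows from this choice. For Irx5 the nearest were Dkk2 and Zfhx3 at 1.19 each, the cell cycle kinase gene Cdc7 at 1.28, Ttc39c at 1.29, Haus8 at 1.31, the zinc finger homeobox gene Tshz3 at 1.32, Mtif3 at 1.36 and Crnde at 1.36.

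Iroquois genes were not each other's nearest profiles. Seen from Irx2, Irx5 ranked 14 at 1.64 and Irx3 ranked 83 at 2.52. Seen from Irx3, Irx2 ranked 154 and Irx5 ranked 214 at 2.62, although Irx3 and Irx5 share a cluster. Seen from Irx5, Irx2 ranked 21 and Irx3 ranked 666. Crnde was nearer to each of the 3 than any family member was, at rank 7 for Irx2, 16 for Irx3 (1.60) and 8 for Irx5. This was not particular to Crnde, because Ttc39c, Dkk2 and Zfhx3 were nearer than Crnde to both Irx2 and Irx5. The measure includes the step between the types, and Crnde varied little between type 1 neurons (SD of log2(CPM + 1) 0.64). Shared regulation is not read from these ranks.

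**Figure D4:**
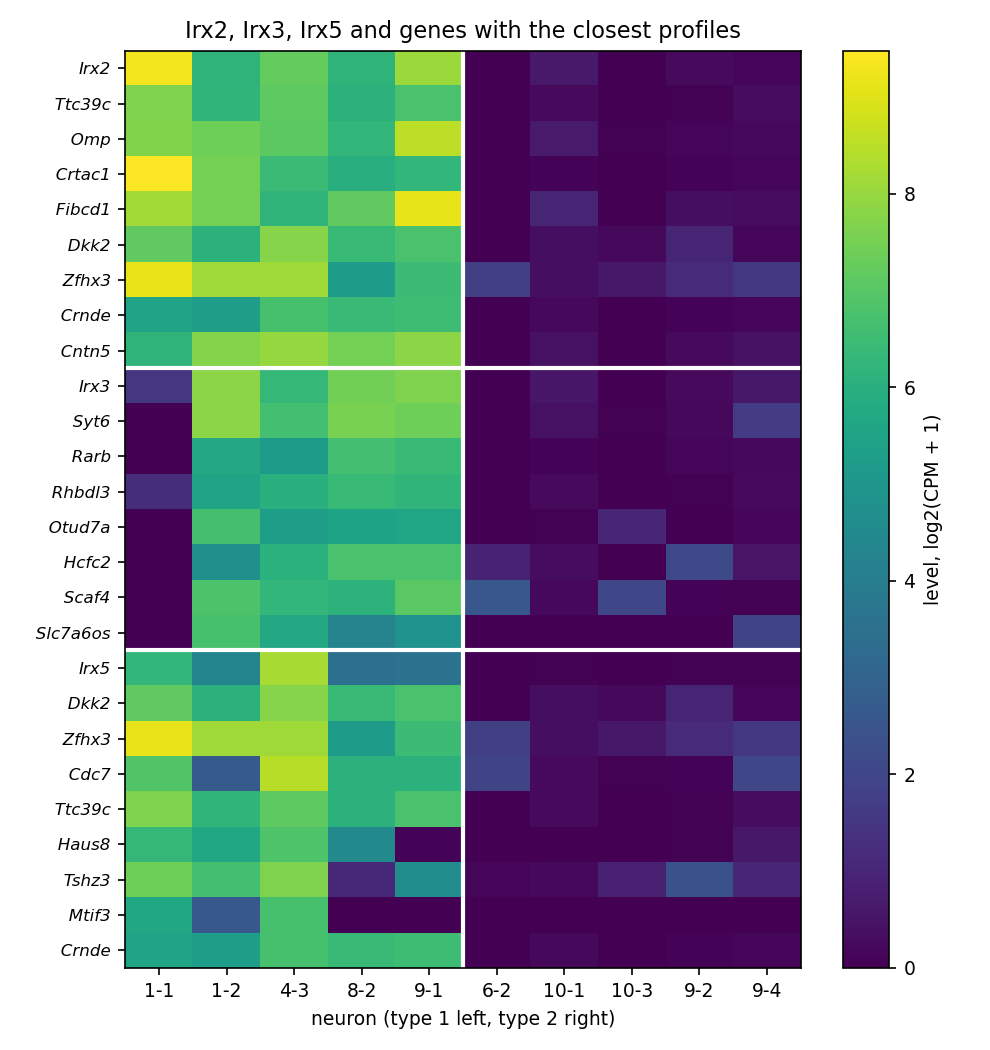
Heat map of log2(CPM + 1) for Irx2, Irx3 and Irx5, each with genes whose profile was closest to it, in the 5 type 1 neurons (left) and the 5 type 2 neurons (right); yellow is high and dark purple is 0. The Irx3 block is dark in 1-1 as well as in type 2, where Irx3 in 1-1 is at 1.80 CPM.

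Other genes of the TALE class encode partners and relatives of Iroquois proteins, among them the Meis, Pbx and Pknox factors that bind DNA with Hox proteins in the hindbrain. Of 12 such genes, all with a row, 10 averaged 1 CPM or more. Among the 10, 1 was higher in type 1 by 2 log2 units or more (7.78% of all genes), 3 were higher in type 2 by as much (13.5% of all genes) and 6 lay within the limit, with a median difference of -0.51. Meis2 ran opposite to Irx2, Irx3 and Irx5: it was at 0 CPM in 1-1, 0.144 CPM in 1-2, 0.102 CPM in 4-3, 0.406 CPM in 8-2 and 2.52 CPM in 9-1, against 247 CPM in 6-2, 20.1 CPM in 10-1, 143 CPM in 10-3, 281 CPM in 9-2 and 94.8 CPM in 9-4. The groups did not overlap, and the difference of mean log2(CPM + 1) was -6.32.

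The remaining TALE genes showed overlapping ranges. Meis1 averaged 7.80 ± 16.5 CPM in type 1 neurons and 36.2 ± 41.5 CPM in type 2 neurons (difference -2.30), and Pknox2 averaged 33.2 ± 50.4 CPM in type 1 neurons and 47.1 ± 30.5 CPM in type 2 neurons (-2.06). Meis3 was within the limit, at 87.4 ± 65.9 CPM in type 1 neurons and 203 ± 74.8 CPM in type 2 neurons (-1.65), each ± being the SD of 5 neurons. Pbx2 and Pbx4 had differences of 1.83 and -0.50. Pknox1, named because it was the only TALE gene past the limit in type 1, was detected in 2 type 1 neurons, 1-1 at 140 CPM and 4-3 at 10.1 CPM, and had 0 counts in type 2.

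In the embryo Iroquois genes act beside patterning factors such as the Olig, Nkx, Pax, Dbx and Gli genes. Of 27 such genes 19 had 0 counts in all 10 neurons, where 10399 of the 25006 listed genes (41.6%) did, and 2 averaged 1 CPM or more, Pax6 and Ptch1, whose differences were 0.43 and 0.25.

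Transcription factors of the solitary nucleus lineage gave 7 of 15 genes averaging 1 CPM or more, of which 3 were higher in type 1 (7.78% of all genes) and 2 higher in type 2 (13.5% of all genes) by 2 log2 units or more, with a median difference of 1.89. Prrxl1, a homeobox gene of sensory relay neurons, averaged 98.3 ± 64.3 CPM in type 1 neurons and 4.49 ± 4.96 CPM in type 2 neurons, with 1.91 CPM in 8-2.

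Pou3f1, a POU domain gene, was at 49.2, 51.0 and 52.5 CPM in 4-3, 8-2 and 9-1 and had 0 counts in 1-1 and 1-2, against at most 0.14 CPM in type 2 neurons. Lhx5, a LIM homeobox gene of several inhibitory lineages, ran the other way, at 0.0335 ± 0.0466 CPM in type 1 neurons and 96.1 ± 72.9 CPM in type 2 neurons (SD, n = 5 neurons each), with every type 2 neuron above every type 1 neuron and a difference of -6.11. Its relative Lhx1, named as the other gene past the limit in type 2, had a difference of -2.40 and was detected in 10-1 and 9-4 of type 2 alone. Pknox1, Pax6, Ptch1 and Lhx1 were named after their values were seen.

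**Figure D5:**
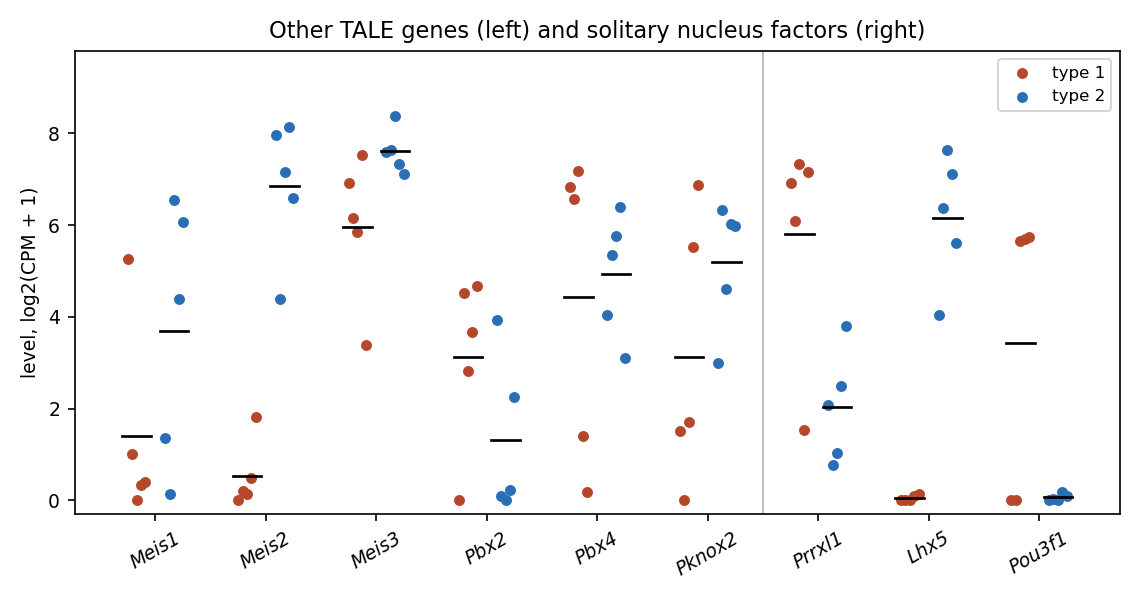
Levels as log2(CPM + 1) of TALE class genes outside the family (left) and solitary nucleus factors (right), from those detected in 3 or more neurons of either type; red points are type 1 neurons, blue points type 2 neurons and bars are means. Meis2 and Lhx5 have every type 2 point above every type 1 point.

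Markers of other cell types were unevenly spread over the libraries. Summed over 14 microglial markers the level was 0.0668 to 877 CPM in type 1 neurons (0 to 6 markers detected) and 4.30 to 1889 CPM in type 2 neurons (0 to 13 detected), highest in 1-2 of type 1 and in 6-2, 9-2 and 9-4 of type 2. Without 6-2, 9-2 and 9-4 the difference of mean log2(CPM + 1) was 7.07 for Irx2, 5.85 for Irx3 and 5.14 for Irx5, and without 1-2 as well it was 7.38, 5.43 and 5.36, both alternatives chosen after the data were seen. Summed over 12 astrocyte markers the level was 150 to 673 CPM in type 1 neurons (1 to 3 detected) and 1045 to 1775 CPM in type 2 neurons (1 to 5 detected). These ranges did not overlap, and Slc1a3 had 0 counts in all neurons. The highest sums, in 10-1, 10-3 and 9-2, came with only 1 of the 12 markers detected, as in 1-1 and 8-2 of type 1. Those highest sums each rested mostly on 1 gene. This does not hold for the other type 2 neurons, 6-2 at 1045 CPM with 5 markers detected and 9-4 at 1075 CPM with 3. In type 1, 4-3 and 9-1 also had 3 detected. Whether type 2 libraries held more astrocyte RNA, and its part in the Iroquois differences, was not tested. For 12 oligodendrocyte lineage markers it was 2.07 to 1047 CPM in type 1 neurons and 39.2 to 220 CPM in type 2 neurons, with Sox10 and Olig2 at 0 counts throughout. For 11 vascular and blood markers it stayed at or under 28.0 CPM in type 1 neurons and 10.8 CPM in type 2 neurons, with Pdgfrb and Rgs5 at 0 counts, and for 4 ependymal markers at or under 2.74 CPM in type 1 neurons and 13.5 CPM in type 2 neurons. The excitatory markers Slc17a6, Slc17a7 and Slc17a8 summed to 182 to 619.8 CPM in type 1 neurons and 95.3 to 370.3 CPM in type 2 neurons, ranges that overlapped. The inhibitory markers Gad1, Gad2, Slc32a1 and Slc6a5 summed to 0 to 481 CPM in type 1 neurons and 224 to 759 CPM in type 2 neurons.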

How the data were processed

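RNA of 10 single neurons was measured, 1 library each, grouped by the firing type in the labels. The deposited values are whole-number read counts per gene without normalization, as the values themselves show, with the same 25006 Ensembl identifiers in each table and no molecular identifiers. Per the submitters' processing notes, cutadapt 1.13, STAR, HTSeq 0.6.1p1, DESeq2 and the mm10 build were used. No source used here gives the order of steps, the annotation release, the strand option or any amplification.

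From these counts, CPM, log2(CPM + 1), differences of type means and detection (10 CPM and 3 counts) were computed with Python 3.11.15, numpy 2.4.6 and pandas 2.3.3, intervals with scipy 1.17.1 and TMM factors with edgeR 4.0.16 in R 4.3.3. Each sample is 1 cell and no animal is named, so no p-value was computed. No library copied another: over the 45 pairs the lowest chi-square divided by its degrees of freedom was 619. Symbols matched 24942 identifiers and GENCODE M21 coordinates (GRCm38) 24991. Promoter windows are from RefSeq (GRCm38.p6), in which 3 of the genes shown, Irx2, Irx4 and Crnde, gave a printable window. The scripts were tested on simulated data.

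The members and gene lists were chosen with earlier results of these data known. Named are the 6 members, list genes detected in 3 or more neurons of either type, and the 8 genes nearest in profile to each member detected in at least 3 neurons, leaving out pseudogenes, unnamed and predicted genes and those of mitochondria, ribosomal proteins and haemoglobin. Of the genes this rule names, 3 are not reported here. Alternatives were pseudocounts of 10 and 0.1 CPM, other detection levels and filters, TMM and median-of-ratios scaling, totals without the 50 most abundant genes, thinning to the smallest library, medians, ratios of means, depth sets, neurons with first number 9, leaving out each neuron, and leaving out neurons with many microglial markers.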

Additional observations from a re-analysis of the deposited data

Results flagged for a closer look

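Among the 5 type 1 neurons, Irx3 in 1-1 stood apart from the rest, at 1.80 CPM where the next lowest, 4-3, was at 77.6 CPM. On the log2(CPM + 1) scale the gap between them was 0.758 of the whole type 1 range, above Dixon's 95% critical value for 5 values, which chance passes in about 1 in 20 groups of independent samples. The size of the gap depends on the scale, and in CPM it was a smaller part of the type 1 range. Since these are 5 cells with no animal named, the gap is a description and not a test.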

How the results depend on the processing

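No alternative reversed the direction of an Iroquois difference. Leaving out neurons or changing the pseudocount could not do so. The ranges of Irx2, Irx3 and Irx5 do not overlap between the types, and Irx1 had no type 2 count. The contrast also chose the family, so no support is read from the unchanged direction. The differences depended on the pseudocount: with 10 CPM they were 4.14 for Irx2, 3.27 for Irx3, 2.33 for Irx5 and 0.33 for Irx1, and with 0.1 CPM 9.63 for Irx2, 8.00 for Irx3, 8.15 for Irx5 and 3.13 for Irx1. Leaving out 1 neuron at a time gave 6.70 to 7.49 for Irx2, 5.44 to 7.02 for Irx3 and 4.38 to 5.56 for Irx5. For Irx1 they were 0.80 to 1.72, lowest without 4-3, and 0.0 among neurons numbered 9. Irx1 was detected in 3 type 1 neurons at 1 CPM, in 0 at 50 CPM, in 0 with TMM scaling and in 0 to 1 when 1 neuron was left out (0 without 4-3), and Irx5 in 2 at 50 CPM. The share of all genes higher in type 1 by 2 log2 units was 1.59% with a pseudocount of 10 CPM, 12.5% with 0.1 CPM, and 15.9% both without 6-2, 9-2 and 9-4 and without 1-2 as well. The share higher in type 2 was 2.31% and 24.4% with those pseudocounts. Every type 1 neuron was above every type 2 neuron in 3.52% of genes without those 3 neurons, 5.32% without all 4 and 0.761 to 1.11% with 1 left out, and the reverse held in 6.36%, 8.39% and 1.94 to 2.6%, where fewer neurons make separation easier. TMM scaling shifted the median of all genes by -0.15, to -0.39, and gave 7.04 for Irx2, 5.74 for Irx3 and 5.02 for Irx5. Of the 8 genes nearest to Irx2, 5 to 8 were kept. No paired analysis was possible because no full cell identifier occurs in both types, and nothing in the labels says what the first number 9, shared by 9-1, 9-2 and 9-4, stands for. With 5 single cells a type, a gene can be missed in a neuron whatever the depth of its library.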
